A study of Mus musculus with 15 samples.

Results

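The 35 genes described here belong to the unfolded protein response and the integrated stress response, measured in the mouse macrophage line RAW264.7 after LPS and glucocorticoids. They were taken by symbol from the array's own gene names: 12 chaperones and cochaperones of the endoplasmic reticulum (ER), 4 disulfide isomerases, 5 genes of ER-associated degradation and protein translocation, 5 stress sensors and transcription factors, and 9 targets of the transcription factor ATF4. All 35 were tested, among 19506 genes tested in all. Each gene was read from its brightest tested probe, and 20 of the 35 had at least 1 other tested probe.

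RAW264.7 is an immortalised macrophage-like line derived from a virus-induced mouse tumour, so it stands for macrophages only as a transformed line grown in culture. The study set 4 glucocorticoids beside vehicle, with 3 arrays in each of 5 groups: the vehicle group, labelled EtOH and DMSO; dexamethasone (DEX), a synthetic glucocorticoid; fluticasone furoate (FF), an inhaled glucocorticoid that carries a furoate ester; and VSG158 and VSG159, known here by code name only. Each compound was given at 100 nM for 1 h before LPS, the bacterial lipopolysaccharide that activates macrophages, at 1 ug/ml for 16 h. The protocol text describes LPS for the whole series, but the vehicle labels name the solvents alone. No array was labelled as free of LPS. Whether vehicle received LPS is therefore not certain, and without it each change against vehicle would hold LPS and compound together. The design text speaks of duplicates while the labels number 3 arrays a group. Nothing says whether those were separate cultures, so the p-values measure the spread between arrays, which may be technical.

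The unfolded protein response starts when unfolded proteins build up in the ER. IRE1 (gene Ern1), PERK (Eif2ak3) and ATF6 sense the load: IRE1 splices Xbp1 mRNA, ATF6 is cut to release a transcription factor, and PERK phosphorylates the initiation factor eIF2-alpha, which slows translation in general and favours translation of Atf4. XBP1 and ATF6 are known to drive ER chaperones and degradation genes, whereas ATF4 drives amino acid synthesis and transport genes and, with CHOP (Ddit3), a set of signalling and cell death genes. Activated macrophages make large amounts of secreted and membrane protein and load this machinery. Probes that count mRNA do not measure Xbp1 splicing, eIF2-alpha phosphorylation or ATF4 protein.

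The arrays were Agilent one-colour arrays. Their 75th percentile of signal, to which each array was scaled, lay between 695 and 1223 units of intensity. VSG158 array 3 and VSG159 arrays 1 and 2 stood apart, with 75th percentiles of 1170 to 1223 and 541 to 889 spots marked as nonuniform, against 26 to 218 on the other arrays; calls that change without these 3 arrays, which leaves VSG159 array 3 alone in its group, are given both ways (an alternative chosen after seeing the data). Between 39.6% and 50.4% of spots were well above background, and within a group the arrays correlated at 0.961 to 0.991. All 8 macrophage markers tested were well above background on every array, while Col1a1 and Pdgfra (fibroblast), Cd3g and Cd8a (T cell) and Krt8 and Cdh1 (epithelial) were well above background on none. Of the whole lists, 1 to 2 of 5 fibroblast, 2 of 4 T cell and 0 to 2 of 4 epithelial markers passed on an array (0 epithelial in vehicle), and between 0 and 3 of 4 B cell markers, 1 to 3 of them in the vehicle group. One slide carried all vehicle arrays, all VSG158 arrays and the first 2 of VSG159; the other carried VSG159 array 3 with all FF and DEX arrays, so neither DEX nor FF shared a slide with vehicle. In bulk RNA, a change in the share of cells that express a gene and a change in RNA per cell cannot be told apart.

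Promoter sequences of the members were searched for elements known from these pathways, and are printed for some of the genes in the results below. They are RefSeq sequences of build GRCm38.p6, the 250 bases before the annotated start in the direction of the gene, in lower case with the motif letters in capitals. A window was found for 32 of the 35 members, and not for Manf, Hyou1 and Atf6. The first 4 hold the ER stress response element, written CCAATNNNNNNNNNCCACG, which is bound by ATF6 and XBP1 together with NF-Y. Herpud1 holds the short second form, ATTGGNCCACG, and a composite C/EBP-ATF element, TGATGNAA, the kind of site ATF4 binds. Asns holds the composite element alone.
Hspa5, chr2:34771840-34772089, plus strand: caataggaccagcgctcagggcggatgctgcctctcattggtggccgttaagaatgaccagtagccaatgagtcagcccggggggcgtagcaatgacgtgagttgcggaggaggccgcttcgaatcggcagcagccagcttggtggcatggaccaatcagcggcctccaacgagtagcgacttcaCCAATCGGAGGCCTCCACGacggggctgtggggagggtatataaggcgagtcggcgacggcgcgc
Hsp90b1, chr10:86705445-86705694, minus strand: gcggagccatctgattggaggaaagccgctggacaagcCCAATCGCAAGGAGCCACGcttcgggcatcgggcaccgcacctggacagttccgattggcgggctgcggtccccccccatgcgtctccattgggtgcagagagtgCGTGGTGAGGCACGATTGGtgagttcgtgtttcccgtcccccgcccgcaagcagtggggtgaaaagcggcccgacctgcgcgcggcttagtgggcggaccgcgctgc
Dnajc3, chr14:118937682-118937931, plus strand: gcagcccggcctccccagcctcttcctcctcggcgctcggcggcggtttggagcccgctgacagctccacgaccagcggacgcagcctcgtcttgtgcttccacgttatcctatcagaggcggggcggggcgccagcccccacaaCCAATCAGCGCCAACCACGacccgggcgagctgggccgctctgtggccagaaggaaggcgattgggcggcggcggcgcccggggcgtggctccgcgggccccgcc
Pdia6, chr12:17266339-17266588, plus strand: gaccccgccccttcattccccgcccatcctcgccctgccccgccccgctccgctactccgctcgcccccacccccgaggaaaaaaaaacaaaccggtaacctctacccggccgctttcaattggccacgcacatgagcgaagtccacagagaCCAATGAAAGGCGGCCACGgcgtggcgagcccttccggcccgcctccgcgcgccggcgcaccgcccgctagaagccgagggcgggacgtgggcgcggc
Herpud1, chr8:94386179-94386428, plus strand: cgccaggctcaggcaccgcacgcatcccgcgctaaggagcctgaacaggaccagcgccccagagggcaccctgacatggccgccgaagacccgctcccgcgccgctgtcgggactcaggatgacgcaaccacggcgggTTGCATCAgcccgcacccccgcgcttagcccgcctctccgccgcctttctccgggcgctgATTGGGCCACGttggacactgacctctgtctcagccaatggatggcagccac
Asns, chr6:7693210-7693459, minus strand: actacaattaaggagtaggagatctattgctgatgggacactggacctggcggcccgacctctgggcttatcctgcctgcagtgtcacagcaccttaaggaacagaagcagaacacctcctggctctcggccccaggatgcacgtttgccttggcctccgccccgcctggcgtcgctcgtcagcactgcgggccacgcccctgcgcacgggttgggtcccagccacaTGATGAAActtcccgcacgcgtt
Both strands were searched, and a match on the other strand reads as its reverse complement. The ER stress response element lay 65 to 47 bases before the start of Hspa5, and Hsp90b1 held it at 212 to 194 bases before its start and again, on the other strand, nearer to it. It was present in 7 of the 32 members (21.9%), all of them among the 14 chaperones and isomerases with a window, against 35 of 27025 genes (0.13%); 0 of the 9 ATF4 targets held it. The other matches were CGTGGTCGACCCTCATTGG in Calr, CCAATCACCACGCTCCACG in Canx and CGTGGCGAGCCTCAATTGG in Creld2. The second form was found in Herpud1 alone (3.12% of members, 0.037% of genes), and the composite element in Asns, Chac1 and Herpud1 (9.38% of members, 3.91% of genes). The UPR element TGACGTGG was found in 0 members and 0.603% of genes, and the palindrome GNACANNNTGTNC, a glucocorticoid receptor site, in 0 members and 0.44% of genes. A match describes letters in the window and does not show binding.

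Against vehicle, 11 of the 35 genes rose under all 4 compounds at their brightest probes. They were 5 ER folding factors (Fkbp11, Dnajc3, Sdf2l1, Manf, Dnajb11), 4 genes of degradation and translocation (Ssr1, Herpud1, Sel1l, Sec61b) and 2 ATF4 targets (Phgdh, Psat1). The ATF4 targets Ddit3, Ppp1r15a and Ddit4 fell under all 4, as did Dnajb9, P4hb and Edem1. Sel1l and Edem1 had no call under any compound once all their tested probes were averaged. With the same averaging, P4hb lost its calls under DEX, VSG158 and VSG159, and Ddit3 lost its calls under DEX and FF. Of the sensors and transcription factors, Ern1 under DEX alone passed the test at the brightest probes. At other probes Ern1 was called lower under all 4 compounds, and Atf4 under FF, VSG158 and VSG159. Hspa5, widely used as a marker of ER stress, did not pass the test under any compound when read from its brightest probe. Another Hspa5 probe was called higher under all 4 compounds, and a further probe under FF and VSG158.

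A gene was called when limma's moderated test gave an adjusted p (Benjamini-Hochberg over all genes with a value in that comparison, 19499 to 19506) under 0.05. Under DEX, 18 of 35 members were called higher and 6 lower, where 23.2% of all genes were higher and 23.1% lower. Under FF, 15 were higher and 6 lower, beside 20.9% and 21.4% of all genes. Under VSG158 the count was 14 higher and 6 lower, beside 19.7% and 24.5%. VSG159 gave 14 higher and 6 lower, beside 19.1% and 25.0%.

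The share called higher (40% to 51.4%) was thus above the background of all genes, and the share called lower (17.1%) below it. The median log2 change of the 35 was 0.42 under DEX, 0.29 under FF, 0.26 under VSG158 and 0.17 under VSG159, beside 0.03, −0.05, −0.06 and −0.06 for all genes. These 4 comparisons share the same vehicle arrays. In all 4, 11 members (31.4%) were called higher and 6 (17.1%) lower, and 8 (22.9%) were called in none, beside 15.6%, 15.8% and 40.8% of 19498 genes.

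**Figure D1:**
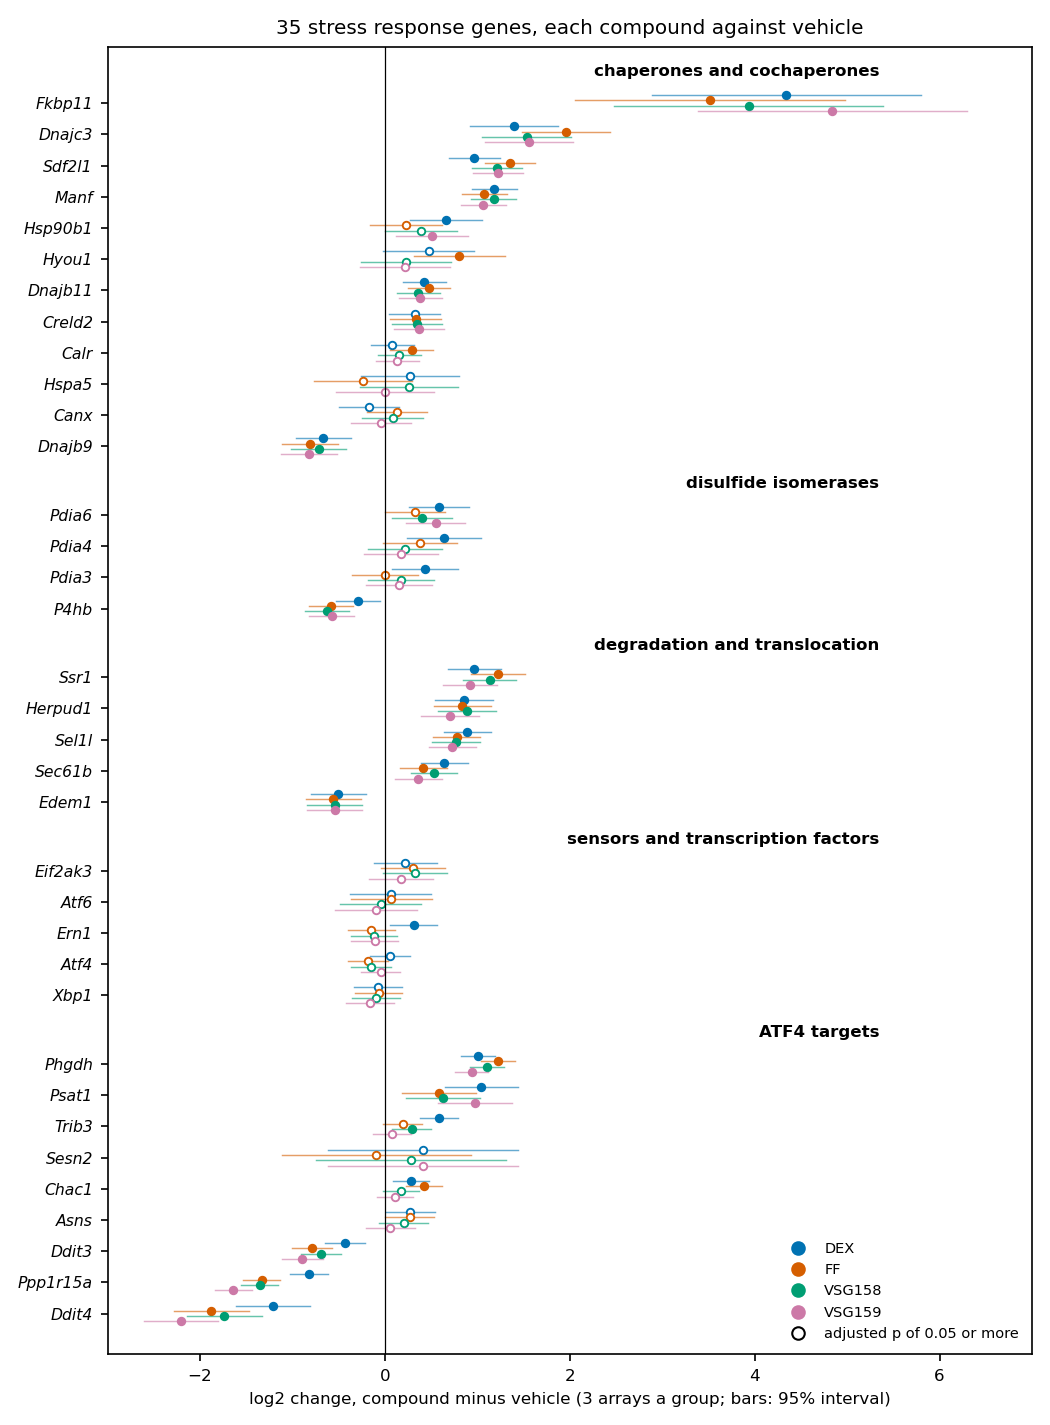
Log2 change of each of the 35 genes against vehicle (x axis) under the 4 compounds (colours), grouped by role; points are group differences of 3 arrays each, bars 95% intervals, and open points have an adjusted p of 0.05 or more. Fkbp11 stands farthest to the right with changes of 3.52 to 4.84 and the widest interval, the 5 sensors lie around 0, and Ddit3, Ppp1r15a and Ddit4 lie to the left under every compound.

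Slide and place on the slide run with the groups. With both as terms in the model, the counts of members called fell from 24 to 0 under DEX, from 21 to 3 under FF, from 20 to 13 under VSG158 and from 20 to 6 under VSG159; DEX and FF share no slide with vehicle. With the slide alone as a fixed block, the calls lost were those of Dnajb11, P4hb and Herpud1 under DEX and FF, of Calr and Hyou1 under FF, and of Dnajc3, Pdia3, Pdia4, Ern1 and Chac1 under DEX. Read on 1 slide alone, VSG158 against vehicle called 19 members and VSG159 arrays 1 and 2 against vehicle called 19. For Ddit4, Dnajb9, Fkbp11, Manf, Phgdh, Ppp1r15a, Sdf2l1 and Ssr1 the calls under all 4 compounds held in each alternative other than the terms for slide and place.

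Among the 12 chaperones and cochaperones, 5 rose under all 4 compounds, 1 fell under all 4 and 2 were called under none. As shares these are 41.7%, 8.33% and 16.7%, beside 15.6%, 15.8% and 40.8% of all genes. Fkbp11, a peptidyl-prolyl isomerase anchored in the ER membrane of secretory cells, changed most. Its scaled log2 signal (taken relative to each array's own 75th percentile) was −4.16, −5.66 and −4.08 on the vehicle arrays, −0.77, −0.23 and 0.13 with DEX, −1.68, −1.05 and −0.62 with FF, −0.60, −1.66 and 0.17 with VSG158, and 0.96, 0.97 and −1.31 with VSG159. Every treated array was above every vehicle array, and VSG159 array 3, on the other slide from arrays 1 and 2, was the lowest of its group. The change was 20.3-fold under DEX, 11.4-fold under FF, 15.3-fold under VSG158 and 28.6-fold under VSG159 (log2 4.34, 3.52, 3.93 and 4.84, each ± 0.67 SE, adjusted p at most 0.001). The vehicle signal was dim, well above background on 2 of 3 arrays, and the size of the change moved with the processing: with normexp background it was log2 2.81, 1.99, 2.42 and 3.28, and with the slide as a fixed block 6.61, 5.79, 3.93 and 5.60. Under VSG159 it was 5.60 without VSG159 array 3 and 3.32 without the 3 arrays that stood apart.

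Dnajc3 encodes the ER cochaperone also known as p58IPK. Its scaled signal was −4.35, −4.34 and −3.77 in vehicle, −2.79, −2.65 and −2.85 with DEX, −2.43, −2.00 and −2.16 with FF, −2.55, −2.39 and −2.94 with VSG158, and −3.03, −2.44 and −2.33 with VSG159. All 12 treated arrays lay above the vehicle arrays, of which 2 of 3 were well above background. It rose by log2 1.39, 1.96, 1.53 and 1.56 (± 0.22 SE, adjusted p at most 2.83e-04); with the slide as a fixed block the DEX call had an adjusted p of 0.0572, and with normexp background the rises were 0.63, 0.99, 0.69 and 0.73.

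Sdf2l1, part of the ER chaperone complex that contains BiP, read 1.62, 1.69 and 1.43 in vehicle, 2.67, 2.39 and 2.58 with DEX, 3.04, 2.95 and 2.81 with FF, 2.88, 2.88 and 2.63 with VSG158, and 2.62, 2.80 and 2.99 with VSG159. The treated arrays did not overlap the vehicle arrays. The rises were 1.96-, 2.56-, 2.32- and 2.33-fold (log2 0.97, 1.36, 1.21 and 1.22, ± 0.12 SE, adjusted p at most 6.4e-05). Manf, a small secreted ER protein induced by ER stress, rose by log2 1.18, 1.07, 1.18 and 1.06 (± 0.11 SE), and its second probe by 1.15, 1.02, 1.06 and 1.13.

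Hspa5 encodes BiP, the central ER chaperone of the Hsp70 family. It read 7.01, 6.86 and 7.03 in vehicle, 6.87, 7.27 and 7.57 with DEX, 6.49, 6.50 and 7.21 with FF, 7.27, 7.23 and 7.19 with VSG158, and 7.19, 7.23 and 6.48 with VSG159. The low values lay on VSG159 array 3 and FF arrays 1 and 2, which held places 1, 2 and 3 of the second slide. The change was 0.27, −0.23, 0.26 and 0.00 (± 0.24 SE, adjusted p 0.392, 0.496, 0.427 and 0.994), with 95% intervals of −0.26 to 0.80, −0.77 to 0.30, −0.27 to 0.79 and −0.53 to 0.53. Read from its other 2 tested probes, Hspa5 was called higher under all 4 compounds by one (0.65, 0.50, 0.64 and 0.40, adjusted p over all probes 0.00392, 0.0179, 0.00412 and 0.0499) and under FF and VSG158 by the other (0.42 and 0.38, adjusted p 0.0143 and 0.0228).

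The remaining chaperones moved less. Dnajb11, an ER cochaperone of BiP, rose under all 4 (0.43, 0.48, 0.36 and 0.38, ± 0.11 SE). Hsp90b1, the ER Hsp90, rose under DEX (0.66 ± 0.18) and VSG159 (0.51), and had changes of 0.23 under FF and 0.39 under VSG158 that did not pass. Creld2, a secreted ER stress protein, was called under FF, VSG158 and VSG159 (0.33, 0.35 and 0.37), with 0.32 and an adjusted p of 0.0524 under DEX.

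Hyou1, an ER Hsp70-like nucleotide exchange factor, was called under FF alone (0.81 ± 0.22), where FF array 1 read 0.41 and the others −0.30 and −0.25. Calr, calreticulin, was likewise called under FF alone (0.29 ± 0.11). Canx, calnexin, was called under none (−0.18 to 0.13), although its second probe rose under all 4 (0.64, 0.54, 0.59 and 0.63). Several of these small calls rested on few arrays. Without the 3 arrays that stood apart, Hsp90b1 under VSG159 was at 0.14 (adjusted p 0.651) and Creld2 at 0.32 under VSG158 (0.0764) and 0.17 under VSG159 (0.486), with neither called, while Creld2 under DEX was called. Hsp90b1 under VSG159 lost its call without any one of vehicle arrays 1, 2 and 3 or VSG159 arrays 1 and 2 (adjusted p up to 0.143), Hyou1 under FF without vehicle 3 or FF 1 (up to 0.0518), and Dnajb11 under VSG158 without vehicle 2, VSG158 1 or VSG158 2 (up to 0.0683). Calr under FF was lost in 11 of 15 such fits (up to 0.181), and Creld2 in 10 under FF (up to 0.183), 9 under VSG158 (up to 0.12) and 4 under VSG159 (without vehicle 1, vehicle 2, VSG159 1 or VSG159 2, up to 0.131).

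Dnajb9 (ERdj4), a cochaperone that represses IRE1, ran against the other chaperones. It read 1.94, 1.54 and 1.48 in vehicle, 0.96, 0.95 and 1.05 with DEX, 0.81, 0.97 and 0.75 with FF, 0.76, 0.96 and 1.09 with VSG158, and 0.97, 0.63 and 0.90 with VSG159. No treated array reached the vehicle arrays. It fell at both tested probes, by log2 changes of −0.67, −0.81, −0.72 and −0.82 (± 0.14 SE, adjusted p at most 0.00193) and of −0.97, −1.11, −1.41 and −1.35.

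**Figure D2:**
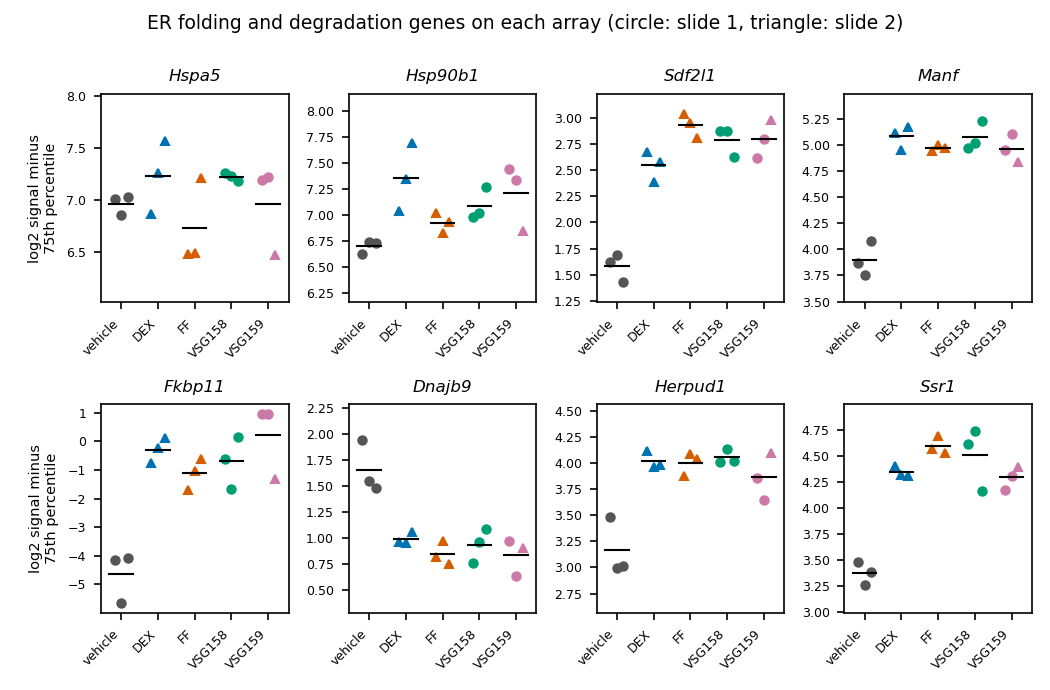
Log2 signal minus the array's 75th percentile (y axis) for 8 ER folding and degradation genes on each of the 15 arrays, by group (x axis); circles are arrays of slide 1, triangles of slide 2, and bars group means. Sdf2l1, Manf, Fkbp11, Herpud1 and Ssr1 sit above vehicle on every treated array and Dnajb9 below it, while Hspa5 spreads from 6.48 to 7.57 across treated arrays.

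The 4 protein disulfide isomerases form and rearrange disulfide bonds in the ER, and they did not move together. P4hb, which encodes PDI itself, read 6.48, 6.84 and 6.48 in vehicle, 6.24, 6.29 and 6.39 with DEX, 5.94, 6.03 and 6.07 with FF, 5.96, 5.94 and 6.02 with VSG158, and 6.15, 6.06 and 5.86 with VSG159. All treated arrays were below the vehicle arrays. It fell, with log2 changes of −0.29, −0.59, −0.62 and −0.58 (± 0.11 SE, adjusted p 0.0481, 9.81e-04, 6.04e-04 and 0.00107), and its second probe gave 0.34, −0.63, −0.39 and 0.33 with no call.

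Pdia6 read 7.10, 7.10 and 7.28 in vehicle, 7.43, 7.84 and 7.98 with DEX, 7.48, 7.52 and 7.44 with FF, 7.58, 7.40 and 7.71 with VSG158, and 7.86, 7.79 and 7.47 with VSG159. Every treated array exceeded the vehicle arrays. It rose by 0.59 under DEX, 0.40 under VSG158 and 0.55 under VSG159 (± 0.15 SE, adjusted p 0.00662, 0.044 and 0.00988), and the change of 0.32 under FF had an adjusted p of 0.106.

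Pdia4 read 1.14, 1.48 and 1.53 in vehicle, 2.16, 1.68 and 2.23 with DEX, 1.90, 1.72 and 1.67 with FF, 1.49, 1.94 and 1.38 with VSG158, and 1.37, 1.61 and 1.68 with VSG159. The VSG158 and VSG159 arrays overlapped vehicle. Pdia4 rose under DEX alone (0.64 ± 0.18, adjusted p 0.0131), as did Pdia3, the isomerase that works with calnexin and calreticulin (0.44 ± 0.16, adjusted p 0.0447). Leaving out 1 array ended the DEX calls of Pdia3 in 10 of 15 fits (adjusted p up to 0.166), of Pdia4 without vehicle 1 or DEX 3 (up to 0.058) and of P4hb in 11 of 15 (up to 0.202), and the VSG158 call of Pdia6 in 9 of 15 (up to 0.136). Without the 3 arrays that stood apart, Pdia6 was not called under VSG158 (0.33, adjusted p 0.115) or VSG159 (0.31, 0.271), nor Pdia3 under DEX (0.0613).

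At their brightest probes, 4 of the 5 genes of degradation and translocation rose and 1 fell under every compound. Of all genes, 15.6% rose and 15.8% fell under every compound. Other probes of Sel1l and Edem1 ran differently, as given below. Ssr1, a subunit of the translocon-associated protein complex, read 3.48, 3.26 and 3.38 in vehicle, 4.40, 4.32 and 4.31 with DEX, 4.56, 4.70 and 4.53 with FF, 4.62, 4.73 and 4.17 with VSG158, and 4.18, 4.31 and 4.40 with VSG159. The groups did not overlap vehicle. It rose 1.96-, 2.33-, 2.19- and 1.89-fold (log2 0.97, 1.22, 1.13 and 0.92, ± 0.13 SE, adjusted p at most 1.26e-04). Its second tested probe gave 0.45, 0.46, 0.38 and 0.23, the last not called (adjusted p 0.169).

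Herpud1, an ER membrane protein of the degradation complex, read 3.48, 3.0 and 3.02 in vehicle, 4.12, 3.96 and 3.98 with DEX, 3.88, 4.09 and 4.04 with FF, 4.02, 4.13 and 4.02 with VSG158, and 3.86, 3.65 and 4.10 with VSG159. Vehicle array 1 was the highest of its group and still below all treated arrays. Herpud1, whose promoter above held both kinds of element, rose by 0.85, 0.84, 0.89 and 0.70 (± 0.14 SE, adjusted p at most 0.00165); with the slide as a fixed block the DEX and FF calls had adjusted p of 0.103 and 0.12. Its second tested probe gave 0.18, 0.62, 0.21 and 0.38 and was called under FF alone (adjusted p 0.00573).

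Sel1l, the scaffold of the HRD1 ubiquitin ligase, read 4.44, 4.41 and 4.69 in vehicle, 5.41, 5.36 and 5.45 with DEX, 5.18, 5.21 and 5.48 with FF, 5.33, 5.30 and 5.22 with VSG158, and 5.38, 5.32 and 5.03 with VSG159. No treated array overlapped vehicle, and it rose by 0.89, 0.78, 0.77 and 0.73 (± 0.12 SE, adjusted p at most 2.85e-04). Its other 2 tested probes did not follow. One lay at −0.35, −0.26, −0.46 and −0.51 and was called lower under VSG158 and VSG159; the other, at 0.03, −0.51, −0.41 and −0.43, was called lower under FF and VSG159.

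Sec61b, a subunit of the translocation channel, rose by 0.64, 0.41, 0.53 and 0.36 (± 0.12 SE), and its second tested probe gave 0.31, 0.20, 0.25 and 0.13, called under DEX and VSG158. Its FF call was lost without vehicle 2 or FF 3 (adjusted p up to 0.053) and its VSG159 call, where 1 array overlapped vehicle, without vehicle 1, vehicle 2, VSG159 1 or VSG159 2 (up to 0.0942). Edem1, a mannosidase-like protein that hands misfolded glycoproteins to degradation, fell (−0.50, −0.56, −0.54 and −0.54, ± 0.14 SE) at its brightest probe (mm9 chr6:108804262-108804321, plus strand), while the other tested probe (chr6:108808920-108808979) gave 0.66, 0.43, 0.52 and 0.30, called higher under DEX (adjusted p 0.0369). Under VSG159, without the 3 arrays that stood apart, neither Edem1 (−0.29, adjusted p 0.253) nor Sec61b (0.16, 0.43) was called.

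The 5 sensors and transcription factors gave few calls at their brightest probes: against vehicle, 1 gene was called under 1 compound. Those called under none made up 80%, beside 40.8% of all genes. Xbp1, total mRNA in these data, read 5.27, 5.12 and 5.20 in vehicle, 5.17, 5.15 and 5.05 with DEX, 4.97, 5.30 and 5.11 with FF, 5.27, 5.16 and 4.88 with VSG158, and 4.96, 4.98 and 5.17 with VSG159. All groups overlapped, with changes of −0.07, −0.07, −0.10 and −0.16 (± 0.12 SE, adjusted p 0.632, 0.697, 0.558 and 0.297), and its other 2 tested probes gave no call.

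Atf4 read 8.31, 8.27 and 8.54 in vehicle, 8.27, 8.44 and 8.58 with DEX, 8.18, 8.25 and 8.15 with FF, 8.25, 8.25 and 8.17 with VSG158, and 8.40, 8.27 and 8.31 with VSG159. FF and VSG158 lay below vehicle on all arrays by a small margin, and DEX and VSG159 overlapped it. The changes of 0.06, −0.18, −0.15 and −0.05 (± 0.10 SE) did not pass (adjusted p 0.667, 0.165, 0.238 and 0.738); the second probe gave −0.15, −0.29, −0.27 and −0.45 and was called lower under FF, VSG158 and VSG159 (adjusted p 0.0156, 0.0252 and 0.00115).

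Ern1 (IRE1) read 0.45, 0.30 and 0.52 in vehicle, 0.78, 0.71 and 0.71 with DEX, 0.28, 0.27 and 0.27 with FF, 0.41, 0.39 and 0.11 with VSG158, and 0.19, 0.19 and 0.56 with VSG159. The DEX arrays stood above all others. Ern1 was called higher under DEX (0.31 ± 0.12, adjusted p 0.0451), a call lost in 10 of 15 fits without 1 array (adjusted p up to 0.152) and with the slide as a random block (0.518). Its other 2 tested probes fell under all 4 compounds (−0.48, −0.68, −0.67 and −0.77; −0.77, −1.05, −0.75 and −1.07, ± 0.10 SE for the former and ± 0.23 for the latter), so the direction of Ern1 depended on the probe.

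Eif2ak3 (PERK) read −0.54, −0.91 and −0.64 in vehicle, −0.36, −0.41 and −0.65 with DEX, −0.53, −0.24 and −0.41 with FF, −0.32, −0.18 and −0.60 with VSG158, and −0.66, −0.66 and −0.23 with VSG159. The FF arrays lay above vehicle, FF array 1 barely so, and the other groups overlapped it. None of its changes passed (0.22, 0.31, 0.33 and 0.18, ± 0.16 SE), although that under VSG158 did without the 3 arrays that stood apart (0.45, adjusted p 0.0308). The second tested probe of Eif2ak3 lay on the other side of 0, at −0.27, −0.13, −0.05 and −0.39, with no call. Atf6 had changes of −0.09 to 0.07 (± 0.20 SE) and no call.

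The 9 ATF4 targets did not move one way. Phgdh and Psat1 rose and Ddit3, Ppp1r15a and Ddit4 fell under all 4 compounds. Trib3 and Chac1 rose under 2 each, and Asns and Sesn2 were called under none. The shares higher in all 4, lower in all 4 and called in none were 22.2%, 33.3% and 22.2%. Those of all genes were 15.6%, 15.8% and 40.8%. Phgdh, the first enzyme of serine synthesis, read 5.49, 5.42 and 5.48 in vehicle, 6.48, 6.54 and 6.40 with DEX, 6.59, 6.68 and 6.80 with FF, 6.57, 6.60 and 6.52 with VSG158, and 6.31, 6.38 and 6.52 with VSG159. Every treated array was above every vehicle array. It rose 2.01-, 2.33-, 2.15- and 1.92-fold (log2 1.01, 1.22, 1.10 and 0.94, ± 0.08 SE, adjusted p at most 2.36e-06).

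Psat1, the next enzyme of that pathway, rose by 1.04, 0.58, 0.63 and 0.97 (± 0.18 SE). Its second tested probe gave 0.33, 0.48, 0.33 and 0.16 and was called under FF alone (adjusted p 0.0275), and without the 3 arrays that stood apart the VSG159 change was 0.55 (0.0648). With the slide as a fixed block the DEX and FF changes were 1.68 and 1.23. Its FF call was lost without vehicle 1, vehicle 2, FF 2 or FF 3 (adjusted p up to 0.0731) and its VSG158 call without vehicle 2 (0.0501). Asns, asparagine synthetase, read 6.23, 6.19 and 6.31 in vehicle, 6.59, 6.54 and 6.44 with DEX, 6.37, 6.60 and 6.56 with FF, 6.58, 6.53 and 6.24 with VSG158, and 6.18, 6.20 and 6.53 with VSG159. DEX and FF lay above vehicle and the other groups overlapped it. Its changes of 0.28, 0.27, 0.21 and 0.06 (± 0.12 SE) did not pass (adjusted p 0.0814, 0.098, 0.197 and 0.723); its second probe rose under DEX and FF (0.53 and 0.42, adjusted p 0.00403 and 0.0159). Without the 3 arrays that stood apart, Asns was called under DEX, FF and VSG158 (0.28, 0.27 and 0.31).

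Ddit4 (REDD1), an inhibitor of mTORC1, fell most of the 35 genes. It read 5.21, 5.75 and 5.94 in vehicle, 4.50, 4.34 and 4.44 with DEX, 3.71, 3.74 and 3.82 with FF, 3.84, 4.04 and 3.82 with VSG158, and 3.38, 3.15 and 3.77 with VSG159. DEX lay between vehicle and the other compounds, with no overlap on either side. Ddit4 was 2.32-, 3.67-, 3.33- and 4.61-fold lower than vehicle (log2 −1.21, −1.88, −1.74 and −2.20, ± 0.18 SE, adjusted p at most 2.26e-04).

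Ppp1r15a (GADD34) targets a phosphatase to eIF2-alpha and so ends the block on translation. It read 5.26, 5.49 and 5.46 in vehicle, 4.62, 4.53 and 4.60 with DEX, 4.04, 4.02 and 4.14 with FF, 3.95, 4.11 and 4.09 with VSG158, and 3.78, 3.62 and 3.89 with VSG159. As for Ddit4, the DEX arrays lay between vehicle and the rest. It was 1.77-, 2.52-, 2.56- and 3.11-fold lower than vehicle (log2 −0.82, −1.33, −1.35 and −1.64, ± 0.09 SE, adjusted p at most 2.3e-05).

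Ddit3 encodes CHOP, a transcription factor tied to cell death in prolonged ER stress. It read 3.32, 3.28 and 3.07 in vehicle, 2.86, 2.73 and 2.80 with DEX, 2.41, 2.43 and 2.46 with FF, 2.43, 2.52 and 2.63 with VSG158, and 2.34, 2.17 and 2.48 with VSG159. The 12 treated arrays were below the vehicle arrays. Ddit3 fell, with changes of −0.43, −0.79, −0.69 and −0.89 (± 0.10 SE, adjusted p at most 0.00406), and its dimmer second probe had changes of −0.18, −0.05, −0.54 and −0.18 (± 0.36 SE) with no call.

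Trib3, a pseudokinase induced by ATF4 and CHOP, read 4.71, 4.60 and 4.70 in vehicle, 5.22, 5.32 and 5.23 with DEX, 4.74, 4.92 and 4.93 with FF, 4.79, 4.97 and 5.13 with VSG158, and 4.78, 4.68 and 4.78 with VSG159. DEX was above every other array. Trib3 rose under DEX (0.59 ± 0.09, adjusted p 3.66e-04) and VSG158 (0.29, adjusted p 0.0267), with 0.19 under FF and 0.07 under VSG159; the VSG158 call was lost without vehicle 2, VSG158 2 or VSG158 3 (adjusted p up to 0.0971) and without the 3 arrays that stood apart (0.103). Chac1, a glutathione-degrading enzyme, rose under DEX (0.28 ± 0.09) and FF (0.42), its DEX call being lost without vehicle 1 or DEX 2 (up to 0.0924). Sesn2, a stress-induced regulator of mTORC1, was called under none (−0.09 to 0.42, ± 0.47 SE), with its lowest values on VSG159 array 3 (2.85) and FF array 1 (2.87).

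**Figure D3:**
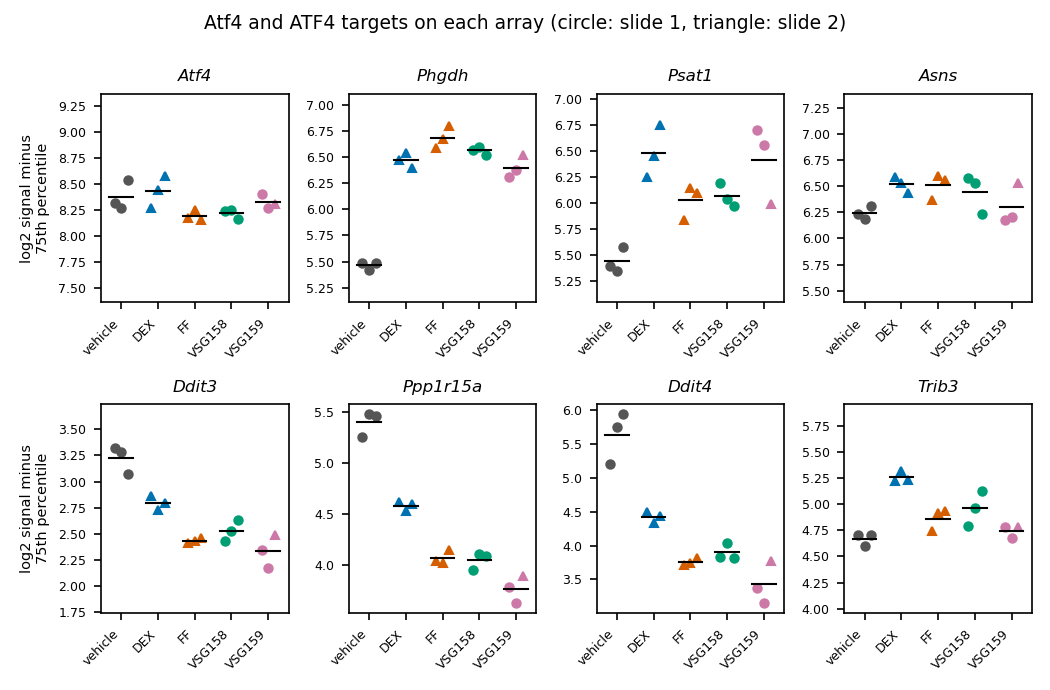
Log2 signal minus the array's 75th percentile (y axis) for Atf4 and 7 ATF4 targets on each of the 15 arrays, by group (x axis); circles are arrays of slide 1, triangles of slide 2, and bars group means. Phgdh and Psat1 stand above vehicle on all treated arrays, Ddit3, Ppp1r15a and Ddit4 below it, and Trib3 is highest with DEX (5.22 to 5.32).

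Set side by side, the 16 chaperones and isomerases and the 9 ATF4 targets gave these counts. Under DEX 9 of 16 folding genes were called higher and 2 lower, against 4 and 3 of 9 ATF4 targets. The counts were 8 and 2 against 3 and 3 under FF, 7 and 2 against 3 and 3 under VSG158, and 8 and 2 against 2 and 3 under VSG159. As shares, folding genes were higher in 43.8% to 56.2% and lower in 12.5%. ATF4 targets were higher in 22.2% to 44.4% and lower in 33.3%. Of all genes, 19.1% to 23.2% were higher and 21.4% to 25% lower. On single arrays, the median of the folding genes relative to the vehicle mean was −0.05 to 0.07 in vehicle, 0.34 to 0.63 with DEX, 0.28 to 0.39 with FF, 0.20 to 0.31 with VSG158 and 0.26 to 0.31 with VSG159. The median of the ATF4 targets was −0.05 to 0.06 in vehicle, 0.22 to 0.38 with DEX, 0.07 to 0.32 with FF, 0.07 to 0.24 with VSG158 and 0.00 to 0.09 with VSG159. With slide and place as terms, the ATF4 target median became −0.05 under DEX, −0.28 under FF, 0.12 under VSG158 and −0.25 under VSG159. The folding genes were not spared by these terms, which left none of them called under DEX. Among the calls of folding genes, signs turned for Pdia3 (−0.39) and Pdia6 (−0.0069) under DEX and for Creld2 under FF (−0.13) and VSG159 (−0.088). Among the calls of ATF4 targets, Trib3 turned under DEX (−0.049). The lists' difference was not tested.

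The folding genes were also split by the ER stress response element in the promoters above. Under DEX 3 of the 7 that held it were called higher and 0 lower, against 5 and 2 of the 7 without it. The counts higher were 3 against 3 under FF, 3 against 3 under VSG158 and 4 against 3 under VSG159, and 0 against 2 were lower in each. The shares of all genes were 19.1% to 23.2% higher and 21.4% to 25% lower. The median of those with it against those without was 0.32 against 0.44 under DEX and 0.29 against 0.38 under FF. It was 0.35 against 0.22 under VSG158 and 0.37 against 0.17 under VSG159. These counts rest on the brightest probes. Hspa5 and Canx hold the element and were not called there, but another probe of each was called higher under every compound. Among genes without it, the second probes of Pdia3 and P4hb had no call. The difference by element was not tested.

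Compared directly at the same dose and time, the compounds differed in few members, and all differences that passed lay below DEX. The 6 pairs of compounds were each adjusted over all genes, with no further adjustment over pairs. FF against DEX called 0 members higher and 3 lower, beside 1.86% and 2.28% of all genes. VSG158 against DEX called 0 higher and 1 lower, beside 1.06% and 0.933%, and VSG159 against DEX 0 higher and 4 lower, beside 1.44% and 4.11%. The split of all called genes depended on the scaling: 44.9% of calls for FF against DEX were higher, and 59.1% with quantile normalization, as were 53.1% and 66.3% for VSG158 and 26% and 41% for VSG159. Of the 8 member differences, 7 were in ATF4 targets and 1 in Ern1.

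Ppp1r15a was lower than with DEX under FF (log2 −0.51, 95% interval −0.72 to −0.31, adjusted p 0.0157), VSG158 (−0.53, −0.74 to −0.33, 0.0153) and VSG159 (−0.82, −1.02 to −0.61, 0.00131). Ddit4 was 1.99-fold lower with VSG159 than with DEX (log2 −0.99, −1.39 to −0.59, adjusted p 0.0148), and its differences of −0.67 for FF and −0.52 for VSG158 did not pass (0.0658 and 0.179). Trib3 was lower with FF (−0.39, adjusted p 0.0435) and VSG159 (−0.51, 0.0149), Ddit3 with VSG159 (−0.46, 0.0243), and Ern1 with FF (−0.46, 0.0495). With all tested probes of each gene averaged, Ddit3 for VSG159 (−0.23, adjusted p 0.575) and Ern1 for FF (−0.31, 0.15) lost their calls. Trib3 for FF then had an adjusted p of 0.0512.

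The FF arrays and the DEX arrays shared a slide. Fitted on that slide alone, Ern1, Ppp1r15a (both 0.0406) and Ddit4 (0.0353) were called lower with FF, and Trib3 was not (0.0613). With the slide as a fixed block Ddit4 and Ddit3 (0.0351 and 0.0368) were called beside Ern1, Trib3 and Ppp1r15a. VSG158 shared none with DEX and VSG159 only its array 3. With the slide as a fixed block, Ppp1r15a for VSG159 kept its call, and the calls of Ppp1r15a for VSG158 (adjusted p 0.194) and of Ddit3, Trib3 and Ddit4 for VSG159 (0.167, 0.073 and 0.117) were lost, while Psat1 for VSG158 was called lower (−1.06, 0.0399); with array median scaling no member difference from DEX was called. The FF differences were lost on leaving out 1 array in 13 of 15 fits for Ern1 (adjusted p up to 0.15), 12 for Trib3 (up to 0.16) and, for Ppp1r15a, without FF 1, FF 2, DEX 1 or DEX 3 (up to 0.0767). Ppp1r15a for VSG158 was lost without VSG158 1, DEX 1 or DEX 3 (up to 0.0744). For VSG159, Ppp1r15a kept its call in all 15, Ddit4 lost it without VSG159 2, DEX 1 or DEX 3 (up to 0.0704), Trib3 without VSG159 2 or DEX 3 (up to 0.0706), and Ddit3 without VSG159 1, VSG159 2, DEX 1 or DEX 3 (up to 0.103). Without the 3 arrays that stood apart, Ddit3 and Ddit4 for VSG159 lost their calls (0.124 and 0.117), and 6 members were called for FF.

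**Figure D4:**
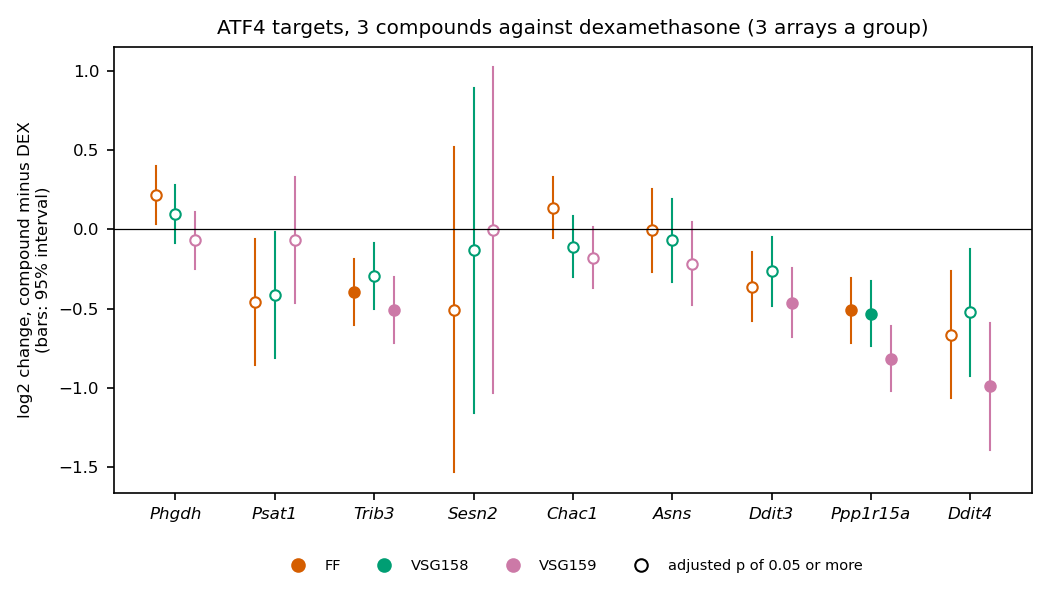
Log2 change of the 9 ATF4 targets under FF, VSG158 and VSG159 against DEX (y axis), with 95% intervals from 3 arrays a group; open points have an adjusted p of 0.05 or more. Ppp1r15a is below 0 and filled for all 3 compounds, from −0.51 to −0.82, and Sesn2 has the widest intervals.

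Among FF, VSG158 and VSG159, no member's difference passed the test. In limma's test VSG158 against FF, VSG159 against FF and VSG158 against VSG159 called 0 members and 0% of all genes in either direction, with lowest adjusted p among the members of 0.785, 0.799 and 0.804. At an unadjusted p under 0.05 the counts were 2 members (Hyou1, Chac1), 5 (Hyou1, Ssr1, Ppp1r15a, Chac1, Phgdh) and 3 (Trib3, Ppp1r15a, Ddit4), among 1229, 1176 and 1202 of all genes. The 95% interval reached 0.29 either side of the estimate at the median member and 1.46 for Fkbp11. For Ppp1r15a the interval was −0.22 to 0.18 between VSG158 and FF, and 0.08 to 0.49 between VSG158 and VSG159; for Ddit4 it was −0.26 to 0.54 and 0.06 to 0.87.

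Probes of 1 gene did not always move alike, which limits what one brightest probe says. For the members with a call and another tested probe, 53 further probe values were at hand: 20 gave the same call, 18 the same sign without a call, 8 the opposite sign without a call and 7 the opposite call. The 7 came from Sel1l (4), Ern1 (2) and Edem1 (1). The probes of Manf, Dnajb9 and Dnajb11 moved together under all 4 compounds. Fkbp11, Sdf2l1, Phgdh, Ddit4, Ppp1r15a, Trib3, Dnajc3 and 8 other members had 1 tested probe each, so no such comparison could be made. With all tested probes of a gene averaged, Sel1l and Edem1 had no call under any compound, P4hb lost its calls under DEX, VSG158 and VSG159, Ddit3 lost its under DEX and FF (adjusted p 0.24 and 0.117), and Ern1 under DEX was called lower (−0.31, adjusted p 0.0434). Why probes differed was not tested.

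**Figure D5:**
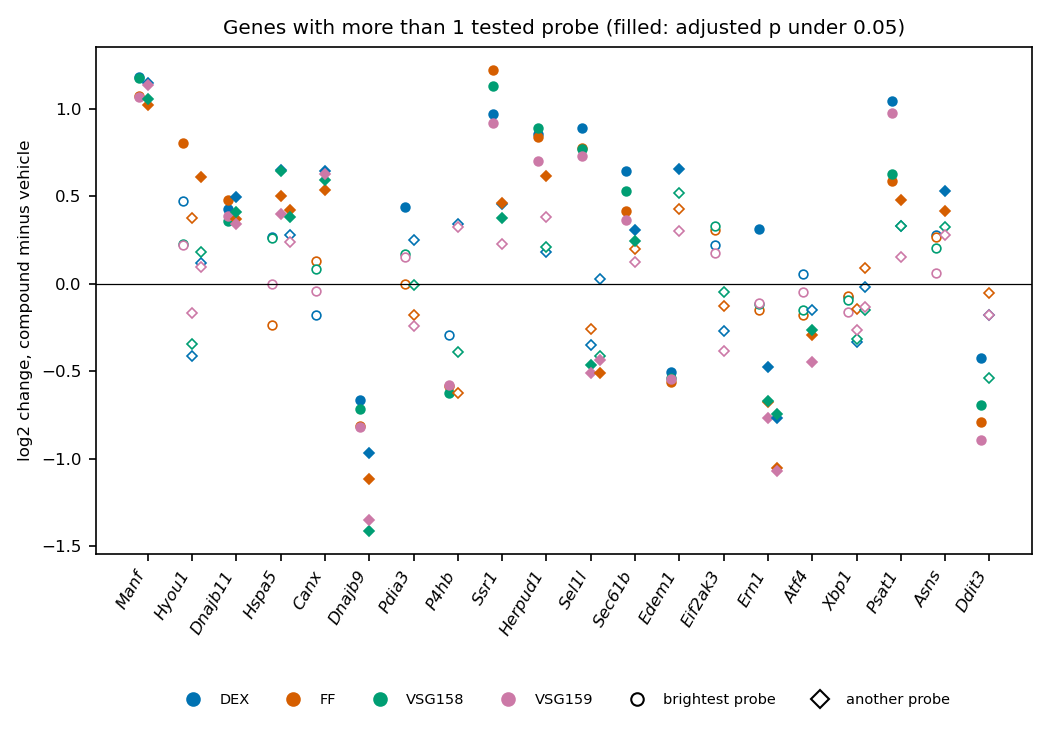
Log2 change against vehicle (y axis) for each tested probe of the 20 genes with more than 1 (x axis); circles are the brightest probe, diamonds the others, colours the compounds, and filled points have an adjusted p under 0.05, here over all tested probes. Circles and diamonds lie on opposite sides of 0 for Edem1, for Eif2ak3 and, but for 1 DEX value of 0.03, for Sel1l. Hspa5 and Canx are higher at their diamonds than at their circles.

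Other genes of the same pathways, 111 listed and 108 tested, gave wider context. They were called higher and lower in 46 and 23 cases under DEX, 44 and 21 under FF, 43 and 28 under VSG158, and 36 and 29 under VSG159. That is 42.6%, 40.7%, 39.8% and 33.3% higher, above the shares of all genes given earlier, and 21.3%, 19.4%, 25.9% and 26.9% lower, near them. ER folding genes rose in 11, 11, 10 and 9 of 20 cases (45% to 55%) and fell in 1, 1, 2 and 1 (5% to 10%). Mogs, the glucosidase that starts N-glycan trimming, rose by 1.52, 1.57, 1.56 and 1.70, and the ER isomerase Fkbp7 by 1.12, 1.06, 1.15 and 1.05. Ero1l, the oxidase that recharges PDI, fell (−0.69, −1.50, −1.34 and −1.70); Prkcsh was lower under VSG158 alone (−0.22).

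Of 15 genes of ER-associated degradation, 2, 2, 2 and 1 were called higher (6.67% to 13.3%) and 7, 5, 8 and 8 lower (33.3% to 53.3%, where 21.4% to 25% of all genes were lower). Selenos rose under all 4 compounds (0.38, 0.46, 0.37 and 0.29) and Derl1 under DEX and VSG158 (0.37 and 0.28). The ubiquitin-conjugating enzyme Ube2j1 (−0.43, −0.67, −0.60 and −0.75) and the lectin Os9 (−0.52, −0.53, −0.63 and −0.59) fell. In translocation and ER export, 10, 8, 8 and 5 of 17 genes rose (29.4% to 58.8%) and 5, 2, 3 and 5 fell (11.8% to 29.4%). The share of all genes called higher was 19.1% to 23.2%. The signal peptidase subunits Spcs3 (1.13, 0.69, 0.87 and 0.59) and Sec11a (0.41, 0.53, 0.53 and 0.48) rose. The coat protein Sec23b (−0.57, −0.38, −0.49 and −0.66) and Sec61g (−0.29, −0.29, −0.28 and −0.32) fell.

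Among 20 further sensors and transcription factors, 4, 4, 4 and 3 rose and 5, 6, 7 and 6 fell (15% to 20% and 25% to 35%, beside 19.1% to 23.2% and 21.4% to 25% of all genes). Atf3, a stress-induced repressor, fell (−2.25, −3.01, −2.87 and −3.05), as did the stress protein Nupr1 (−1.69, −2.32, −2.29 and −2.49). Eif2s1, which encodes eIF2-alpha itself, rose by 0.83, 0.67, 0.80 and 0.65, and the ATF6 protease Mbtps2 by 0.67, 0.61, 0.61 and 0.57.

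Amino acid synthesis and transport genes rose in 10 of 16 cases under each compound (62.5%) and fell in 1, 1, 2 and 1 (6.25% to 12.5%). Their medians were 0.86, 0.72, 0.78 and 0.71. The shares of all genes were 19.1% to 23.2% higher and 21.4% to 25% lower. The glutamine transporter Slc1a5 rose by 1.66, 1.87, 1.79 and 1.62 and Cth, which makes cysteine, by 1.64, 1.50, 1.51 and 1.35. Slc7a5, at a dim probe, fell under DEX, VSG158 and VSG159 (−0.72, −0.81 and −0.55), and Slc1a4 under FF and VSG158 (−0.59 and −0.55). The aminoacyl-tRNA synthetases rose in 8, 8, 8 and 7 of 12 cases (58.3% to 66.7%) and fell in 1, 2, 2 and 3 (8.33% to 25%). Wars (1.06, 1.02, 0.97 and 0.86) and Lars (1.08, 0.81, 0.98 and 0.85) rose, Aars fell under all 4 (−0.43, −0.40, −0.50 and −0.34), and Cars under FF, VSG158 and VSG159 (−0.32, −0.29 and −0.29).

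Of 8 further ATF4 effectors, 1 rose under each compound (12.5%) and 3, 4, 4 and 5 fell (37.5% to 62.5%). Of all genes, 19.1% to 23.2% were higher and 21.4% to 25% lower. Tnfrsf10b, a death receptor, rose by 0.87, 0.66, 0.63 and 0.64. Ndrg1 fell (−1.01, −1.89, −1.65 and −1.91), as did the cell cycle inhibitor Cdkn1a (−1.61, −2.00, −2.09 and −2.14). The medians of these 8 were −0.03, −0.35, −0.28 and −0.57, beside 0.03, −0.05, −0.06 and −0.06 for all genes.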

How the data were processed

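RNA of 15 RAW264.7 samples was hybridised to Agilent one-colour arrays. Per the file headers, the authors scanned them with Feature Extraction 10.7.3.1 (protocol GE1_107_Sep09), and the deposited scanner files hold intensity after its own background correction, with probe positions on mm9. A deposited table of the authors' log2 values served as an alternative; the submitters' processing notes name limma. Control spots were left out. Log2 processed intensity minus each array's 75th percentile was averaged over spots of a probe. Probes well above background on at least 2 of 3 arrays of a group were kept (28508 probes, 19506 genes by the brightest probe); spots marked as outliers were left out, none of them of a member, and no value was imputed. limma 3.58.1 in R 4.3.3 (lmFit, eBayes) fitted the 5 groups over 15 arrays, with 10 residual degrees of freedom, and p-values were adjusted by Benjamini-Hochberg over all genes with a value in the comparison; calls are at 0.05. The script was tested on simulated data. The number of arrays limits the precision.

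The members and lists were chosen with earlier results of these data known. Values on every array are given for the 3 members of each role with the largest mean absolute change against vehicle, plus Hspa5, Xbp1, Atf4, Ddit3, Asns and Trib3; Dnajb9 was added after its values were seen. Of the other lists, the 2 genes called most often in each direction are named. Promoters came from RefSeq (GRCm38.p6) by symbol, for 32 of 35 members. Same-numbered arrays did not deviate together in every pair (r −0.55 to 0.30), so numbers were not used as pairs. Alternatives were other scalings, backgrounds, filters, probe rules, slide terms, a replicate block, 2-group fits each array left out and, chosen after seeing the data, the 3 arrays with over 500 nonuniform spots left out.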

Additional observations from a re-analysis of the deposited data

How the results depend on the processing

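Counts are of members called out of 35, where the settings of the report gave 24 for DEX, 21 for FF, 20 for VSG158 and 20 for VSG159 against vehicle, and 3, 1 and 4 for FF, VSG158 and VSG159 against DEX. Scaling to the array median gave 15 for DEX, 13 for FF and 13 for VSG158 against vehicle, and 0, 0 and 0 against DEX. Calls against vehicle were lost under VSG159 as well. Over the 4 vehicle comparisons, 30 of 140 member results were weaker with this scaling. Slide and array position as terms gave 0, 3, 13 and 6 against vehicle and 0, 0 and 0 against DEX. Quantile normalization gave 1, 0 and 2 against DEX, and no filter on dim probes 0, 0 and 1. The mean of all tested probes gave 1 for FF against DEX. The slide as a fixed block gave 5 for FF and 1 for VSG159 against DEX, and as a random block 5, 0 and 1 for FF, VSG158 and VSG159. Normexp gave 2 and the deposited values 0 for VSG158 against DEX. Fits of only the 2 groups compared gave 0 for VSG158 and 0 for VSG159 against DEX. Leaving out the 3 arrays with over 500 nonuniform spots, chosen after seeing the data, gave 6 for FF and 2 for VSG159 against DEX; it leaves 1 VSG159 array, assumed to vary like the other groups. Leaving out 1 array gave 0 to 5, 0 to 2 and 1 to 5 against DEX, and 20 to 25, 18 to 21, 16 to 20 and 17 to 21 against vehicle.

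Same-numbered arrays were not shown to be paired, since 1 of 15 arrays correlated best with its own number. The replicate block gave 22, 19, 19 and 19 members against vehicle and 1, 1 and 3 against DEX.

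Among results called against vehicle, signs turned with slide and array position as terms for Creld2 under FF (−0.13) and VSG159 (−0.088). With the same terms they turned for Pdia3 (−0.39), Pdia6 (−0.0069), Edem1 (0.095) and Trib3 (−0.049) under DEX, and Sec61b under VSG159 (−0.013). With the mean of all tested probes they turned for P4hb (0.024), Edem1 (0.075) and Ern1 (−0.31) under DEX and for Sel1l under VSG158 (−0.036) and VSG159 (−0.071), and with the slide as a fixed block for Ern1 under DEX (−0.065). Estimates that were not called changed sign too. Over the alternatives, Hspa5 under DEX ran from −0.71 to 1.00 and Sesn2 under DEX from −1.46 to 2.16. The cause was not tested, beyond what the construction of each fit gives. Median scaling moved the median log2 change of all genes from −0.03 to −0.14 for VSG158 against FF and from 0.03 to −0.11 for VSG158 against VSG159. It also left 2, 14 and 30 calls among all genes for FF, VSG158 and VSG159 against DEX, where 0%, 42.9% and 26.7% were higher. The deposited values gave 58.8% higher for FF against DEX. Of the 85 calls against vehicle, 67 held in every fit without 1 array, 43 in these and in every other alternative except slide and position terms, and 19 with those terms too. Signal over background limits Dnajc3 and Fkbp11, each well above it on 2 of 3 vehicle arrays.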
